A study of Rattus norvegicus with 20 samples.

Results

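Prom1, Tspan8, Tspan1, Upk1b and Crip1 were followed as markers of rat tracheal cells before and after transplantation into mouse skin. They are 5 of the 14506 gene symbols that have a probe set of their own on the array, and each of the 5 symbols has 1 such probe set among the 29215 of the table. The genes were chosen by their values in these same arrays, which were higher in trachea than in the other tissues at both stages. Their levels in trachea, the distance between trachea and the other tissues, and their change in trachea are therefore given as a description, with no test.

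The cells came from Sprague-Dawley rats aged 200 days that carry an actin promoter EGFP transgene and constitutively express EGFP, the green fluorescent protein. Epithelial cells of trachea, vagina, oral mucosa, oesophagus and foot pad were released with trypsin and grown on irradiated 3T3-J2 cells, a mouse fibroblast feeder layer. The groups after transplantation are cells of each tissue that were placed in a newborn mouse skin microenvironment, grafted on nude mice, recovered from the grafts and cultured again. The groups before transplantation are the cultures of the same tissues that had not been grafted, so the transgene, the feeder and the culture are shared by all 10 groups. Each group has 2 arrays, made from cells cultured in duplicate and sorted on EGFP. The sort would remove mouse cells, while any rat cell passes it, whatever its type. How many animals and grafts stand behind a group is not stated, so the p-values rest on the spread of duplicates alone. The recovered cells had been grafted and then put into culture anew, and the effects of these steps cannot be told apart. Roman numerals in the sample titles differ between the stages in each tissue except vagina, and the labels do not explain them. If they count passages, as the study writes passages, the stages also differ by passage in those 4 tissues, whose part in the results was not tested. Across all probe sets, the 2 arrays of a group had a Pearson's r between 0.991 and 0.996.

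All values are log2 RMA values, so that 1 unit stands for 2-fold, and SDs are over 2 arrays. A gene rose or fell, and is called, where its change exceeded 2-fold with an adjusted p under 0.05 in limma (Benjamini-Hochberg over all 29215 probe sets). Levels of different genes are not set against each other, because probes differ in brightness. The table has no detection calls, so whether low values lay above background is not known for any gene, and a fold against a low level is that of the values as given.

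Prom1, also called CD133, is a membrane glycoprotein that sits in microvilli and other protrusions of the cell surface, and is widely used as a marker of stem and progenitor cells. Tspan8, Tspan1 and Upk1b are tetraspanins, small proteins that cross the membrane several times and gather integrins, adhesion molecules and each other into surface domains. Upk1b is best known from the bladder, where it forms the rigid plaques of the urothelial surface together with Upk3a. Crip1 is a small zinc-binding LIM-domain protein of the cytoplasm, first described in intestine, and is not a membrane protein.

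The 5 genes shared the highest position of trachea at both stages, but not a common response. In trachea, Prom1, Tspan1 and Upk1b were 10.5-fold, 6.18-fold and 4.20-fold lower after transplantation, whereas Crip1 was 2.72-fold higher and Tspan8 1.53-fold higher. Both trachea arrays nevertheless lay above all 8 arrays of the other tissues at the same stage for each of the 5 genes. In the other tissues, Prom1, Tspan8 and Upk1b fell in vagina, Tspan8 fell in oral mucosa, Crip1 fell in oesophagus and Tspan8 rose in foot pad.

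The promoters of the 5 genes are shown so that the genes which were lower in trachea after transplantation can be set beside those which were not. The sequences are from RefSeq on the GRCr8 assembly, run 5′ to 3′ on the strand of the gene and reach from 250 bases before to 50 bases after the start. Prom1 and Crip1 have 2 starts each in that table. Capitals mark matches, on either strand, to any of 8 short strings. These are CACTTG, bound by NKX2 factors, AACCNGTT, bound by grainyhead-like factors (GRHL), CCGGAAG, bound by ETS factors, and TGTTTAC, bound by forkhead factors. Another is TGANTCA, which includes the AP-1 sites TGACTCA and TGAGTCA. Its only match, TGAATCA at the second Prom1 start, is neither of these sites. The others are the CCAAT box, the TATA box, searched as TATAAA, and the GC box, searched as GGGCGG. No match overlaps another.
Prom1 first start: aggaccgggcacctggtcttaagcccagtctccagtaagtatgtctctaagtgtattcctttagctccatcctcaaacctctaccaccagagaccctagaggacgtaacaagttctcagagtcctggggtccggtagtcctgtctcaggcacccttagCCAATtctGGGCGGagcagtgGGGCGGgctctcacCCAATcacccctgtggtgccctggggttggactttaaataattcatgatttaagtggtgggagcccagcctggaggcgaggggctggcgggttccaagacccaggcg
Prom1 second start: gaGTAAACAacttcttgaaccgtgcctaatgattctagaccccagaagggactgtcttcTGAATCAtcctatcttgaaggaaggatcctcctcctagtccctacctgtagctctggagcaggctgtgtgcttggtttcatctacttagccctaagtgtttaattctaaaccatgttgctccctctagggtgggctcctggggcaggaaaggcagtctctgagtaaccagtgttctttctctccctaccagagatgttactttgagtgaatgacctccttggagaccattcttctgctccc
Tspan1: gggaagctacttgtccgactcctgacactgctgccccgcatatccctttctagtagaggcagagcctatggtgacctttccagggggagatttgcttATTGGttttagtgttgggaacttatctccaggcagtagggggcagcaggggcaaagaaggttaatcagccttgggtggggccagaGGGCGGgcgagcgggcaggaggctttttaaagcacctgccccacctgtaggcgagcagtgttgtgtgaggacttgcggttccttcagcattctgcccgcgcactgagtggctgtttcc
Upk1b: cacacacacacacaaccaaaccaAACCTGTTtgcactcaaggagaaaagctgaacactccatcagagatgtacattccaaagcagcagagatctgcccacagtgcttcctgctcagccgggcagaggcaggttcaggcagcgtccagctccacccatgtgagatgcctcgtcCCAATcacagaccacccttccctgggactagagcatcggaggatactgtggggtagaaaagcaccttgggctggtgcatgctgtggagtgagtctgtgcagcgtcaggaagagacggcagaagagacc
Tspan8: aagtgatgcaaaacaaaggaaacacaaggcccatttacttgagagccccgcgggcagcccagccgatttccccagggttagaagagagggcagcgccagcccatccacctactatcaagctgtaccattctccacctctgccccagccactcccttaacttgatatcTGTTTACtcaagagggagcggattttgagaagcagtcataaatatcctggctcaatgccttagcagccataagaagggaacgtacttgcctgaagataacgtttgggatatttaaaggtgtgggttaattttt
Crip1 first start: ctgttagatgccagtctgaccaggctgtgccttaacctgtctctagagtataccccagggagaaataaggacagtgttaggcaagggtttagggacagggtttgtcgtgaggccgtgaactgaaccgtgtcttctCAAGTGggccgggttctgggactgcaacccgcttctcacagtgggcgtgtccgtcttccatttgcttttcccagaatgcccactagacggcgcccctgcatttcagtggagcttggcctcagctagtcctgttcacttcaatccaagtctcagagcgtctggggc
Crip1 second start: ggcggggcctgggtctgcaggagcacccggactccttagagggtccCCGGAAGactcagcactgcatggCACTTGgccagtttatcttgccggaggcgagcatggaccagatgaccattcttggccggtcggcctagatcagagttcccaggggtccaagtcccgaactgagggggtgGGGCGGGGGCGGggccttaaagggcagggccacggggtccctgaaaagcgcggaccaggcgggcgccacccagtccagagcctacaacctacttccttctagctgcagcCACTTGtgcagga

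The first Prom1 window lies at chr14:71202395-71202694 and the second at chr14:71211389-71211688, both on the plus strand. The Tspan1 window is chr5:134888681-134888980 on the minus strand. The windows of Upk1b at chr11:75459131-75459430, Tspan8 at chr7:53330937-53331236 and Crip1 at chr6:138047551-138047850 and chr6:138053618-138053917 are on the plus strand. CCAAT was found in the first Prom1 window and in those of Tspan1 and Upk1b, and in none of the Tspan8 and Crip1 windows. It occurs in 37.5% of all 33469 promoters of the table. The GC box string, which 33.1% of promoters hold, was in the first Prom1 window, the Tspan1 window and the second Crip1 window. The Tspan8 window held 1 match, a forkhead string at −83 from the start. The second Prom1 window held this string too, at −248, and 3.78% of promoters hold it. The Upk1b window was the only one with a GRHL string, at −227 from the start, which 2.10% of promoters hold. Both Crip1 windows held the NKX2 string, found in 14.1% of promoters, and no window of the other genes did. NKX2-1 is the transcription factor that specifies lung and trachea, and its part in the level of Crip1 was not tested. No window held TATAAA, which 14.2% of promoters hold. A match is a string of letters, not a binding site.

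Prom1 in trachea read 7.11 and 7.06 after transplantation, and 10.52 and 10.43 before. In vagina it read 4.72 and 4.35 after, against 10.06 and 10.19 before. The untransplanted cells of both tissues thus lay close together, and only those of trachea stayed clearly above the rest. The distance of trachea to vagina was 2.54 after transplantation and 0.35 before, or 1.28-fold before. In oral mucosa the Prom1 values were 4.74 and 4.58 after, against 5.53 and 5.17 before. In oesophagus they were 4.45 and 4.62 after, against 5.15 and 5.06 before. In foot pad they were 3.67 and 3.66 after, against 3.98 and 4.04 before. After transplantation every array was lower than both arrays before in each of the 5 tissues. The order after transplantation was trachea, oral mucosa, oesophagus, vagina and foot pad, in which the arrays of oral mucosa and oesophagus, and of oesophagus and vagina, overlapped. Before, it was trachea, vagina, oral mucosa, oesophagus and foot pad, with no overlap between neighbours.

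The fall of Prom1 in vagina was the largest change of any of the 5 genes in any tissue. Its level was 4.54 ± 0.26 after and 10.12 ± 0.09 before, a difference of −5.59 ± 0.13 (SE), 48.1-fold lower in the values as given (limma, adjusted p = 6.46e-12). Whether the level of 4.54 lay above background is not known. In the other tested tissues the differences were within 2-fold. They were −0.69 ± 0.13 in oral mucosa (limma, adjusted p = 0.00161), −0.57 ± 0.13 in oesophagus (adjusted p = 0.00961) and −0.35 ± 0.13 in foot pad (adjusted p = 0.058). In trachea, the difference was −3.40 ± 0.13 between stages whose duplicates lay within 0.1 of each other.

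**Figure D1:**
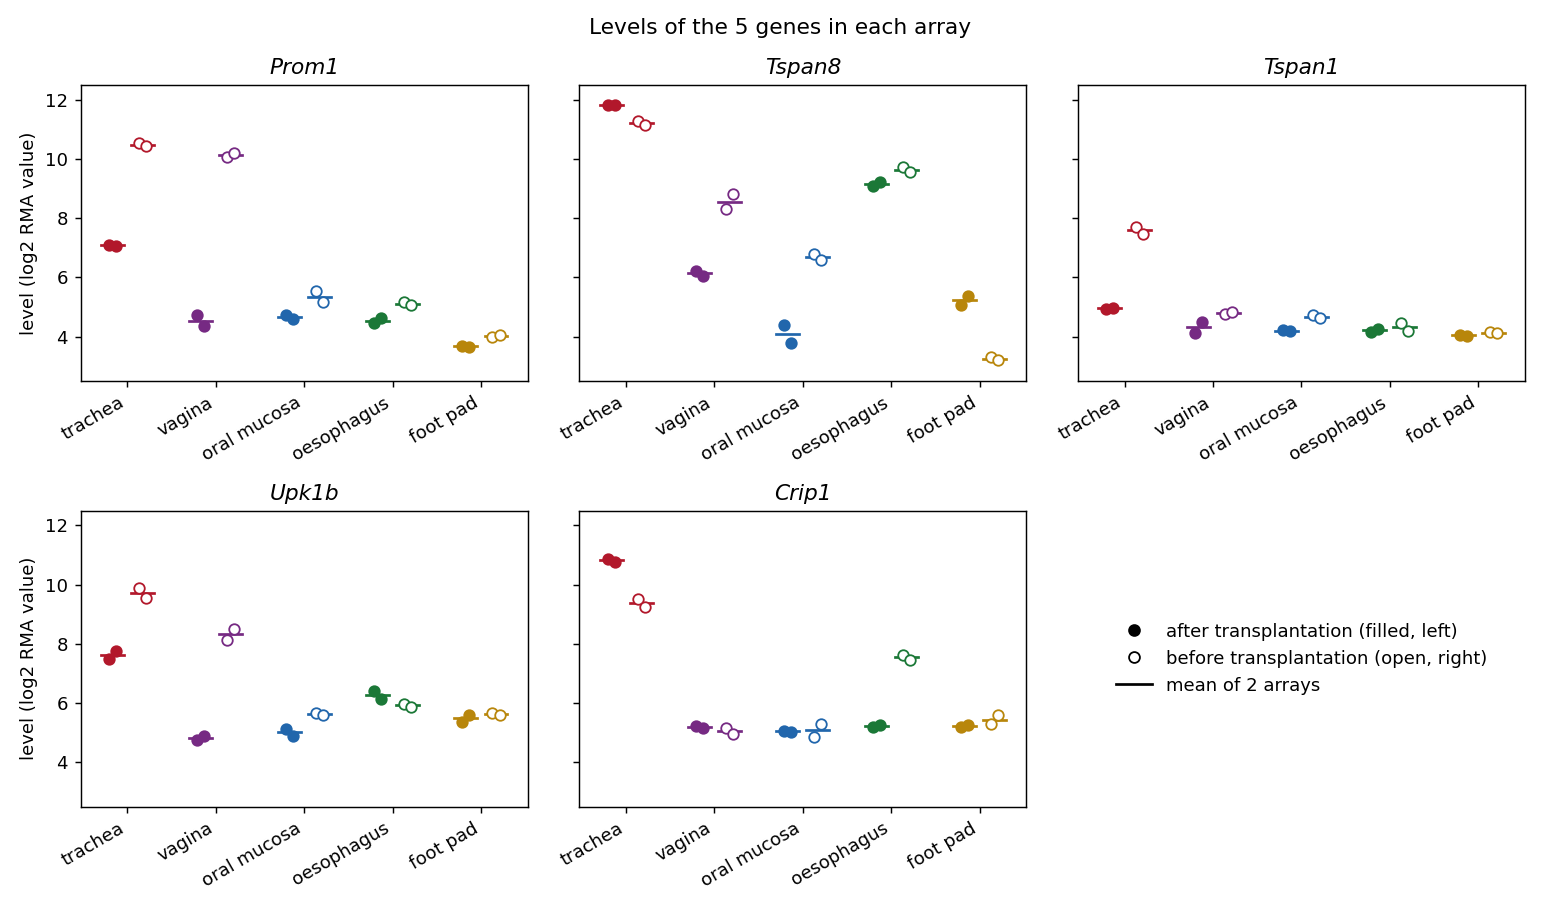
Log2 RMA values (vertical axis) of the 5 genes in each array, by tissue (horizontal axis), with filled points after and open points before transplantation and a line at the mean of the 2 arrays. Trachea is the highest tissue in every panel at both stages, while vagina is second for Prom1 and Upk1b before transplantation and among the lower tissues for both after it.

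Tspan8 is a tetraspanin of gastrointestinal and other epithelia, known from rat carcinoma cells to gather EpCAM, claudin-7 and integrins. Trachea read 11.83 and 11.82 after transplantation, and 11.28 and 11.14 before. The cells of trachea thus kept the highest values, 0.62 ± 0.18 above their values before. Oesophagus was next at both stages, with 9.08 and 9.22 after, against 9.71 and 9.56 before. Vagina read 6.22 and 6.06 after, against 8.29 and 8.80 before. Oral mucosa read 4.38 and 3.80 after, against 6.78 and 6.60 before. Foot pad went the other way, with 5.07 and 5.37 after, against 3.31 and 3.19 before. No neighbours in the order of tissues overlapped at either stage. Oral mucosa was the lowest tissue after transplantation, and foot pad before.

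Tspan8 was the member that changed in most tissues. It fell 6.06-fold in oral mucosa, with a difference of −2.60 ± 0.18 (limma, adjusted p = 1.94e-07), and 5.31-fold in vagina, with −2.41 ± 0.18 (adjusted p = 8.04e-07). In foot pad it rose 3.92-fold, by 1.97 ± 0.18 (limma, adjusted p = 1.40e-06). The difference of −0.48 ± 0.18 in oesophagus did not pass (adjusted p = 0.111). The distance of trachea to oesophagus was 2.67 after transplantation, or 6.38-fold, and 1.57 before, or 2.97-fold.

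Tspan1 is a tetraspanin of secretory epithelia. It had a clear distance between trachea and the rest only before transplantation. Trachea read 4.95 and 4.97 after, and 7.72 and 7.45 before. Vagina, the next tissue at both stages, read 4.14 and 4.48 after, against 4.75 and 4.84 before. The remaining 3 tissues lay between 4.03 and 4.26 after and between 4.11 and 4.73 before. The distance of trachea to vagina was 0.65 after transplantation, or 1.57-fold, and 2.79 before, or 6.93-fold. Vagina and oesophagus, and oesophagus and oral mucosa, overlapped after transplantation, and no neighbours did before. Differences outside trachea were −0.48 ± 0.12 in vagina (limma, adjusted p = 0.0117) and −0.47 ± 0.12 in oral mucosa (adjusted p = 0.0123), both within 2-fold. They were −0.12 ± 0.12 in oesophagus (limma, adjusted p = 0.641) and −0.09 ± 0.12 in foot pad (adjusted p = 0.636). Of the 5 genes, Tspan1 was thus the one that passed the test in none of the 4 tissues.

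Upk1b, the uroplakin tetraspanin, was lower after transplantation in both trachea and vagina, as Prom1 was. Trachea read 7.50 and 7.77 after transplantation, and 9.87 and 9.53 before. Vagina read 4.76 and 4.89 after, against 8.15 and 8.51 before. Vagina was thus the second tissue before transplantation and the lowest after it. Oesophagus read 6.40 and 6.13 after, against 5.97 and 5.87 before. Foot pad read 5.35 and 5.61 after, against 5.67 and 5.59 before. Oral mucosa read 5.11 and 4.90 after, against 5.66 and 5.61 before. The arrays of oral mucosa and foot pad overlapped before transplantation, and no neighbours did after. In vagina Upk1b fell 11.4-fold, with a difference of −3.51 ± 0.15 (limma, adjusted p = 3.30e-09). In oral mucosa the difference was −0.63 ± 0.15 (limma, adjusted p = 0.00978), within 2-fold. It was 0.34 ± 0.15 in oesophagus (limma, adjusted p = 0.195) and −0.15 ± 0.15 in foot pad (adjusted p = 0.527). The distance of trachea to the next tissue was 1.37 after, where oesophagus was next, and 1.38 before, where vagina was next.

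Crip1 stood more than 5 log2 units higher in trachea than in each other tissue after transplantation. Trachea read 10.88 and 10.75 after, and 9.51 and 9.23 before. Oesophagus read 5.19 and 5.26 after, against 7.64 and 7.46 before. The intermediate level of untransplanted oesophagus cells was thus absent from the recovered ones. In vagina the values were 5.22 and 5.15 after, against 5.15 and 4.96 before. In foot pad they were 5.18 and 5.25 after, against 5.28 and 5.60 before. In oral mucosa they were 5.07 and 5.03 after, against 4.85 and 5.31 before. After transplantation the 8 arrays outside trachea lay between 5.03 and 5.26, with overlaps between oesophagus and foot pad and between foot pad and vagina. Before, foot pad overlapped oral mucosa, and oral mucosa overlapped vagina. In oesophagus Crip1 fell 5-fold, with a difference of −2.32 ± 0.15 (limma, adjusted p = 6.38e-07). The differences in vagina, 0.13 ± 0.15 (limma, adjusted p = 0.595), foot pad, −0.23 ± 0.15 (adjusted p = 0.292), and oral mucosa, −0.03 ± 0.15 (adjusted p = 0.913), did not pass. Trachea lay 5.59 above oesophagus after transplantation, or 48.2-fold, and 1.82 above it before, or 3.54-fold.

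**Figure D2:**
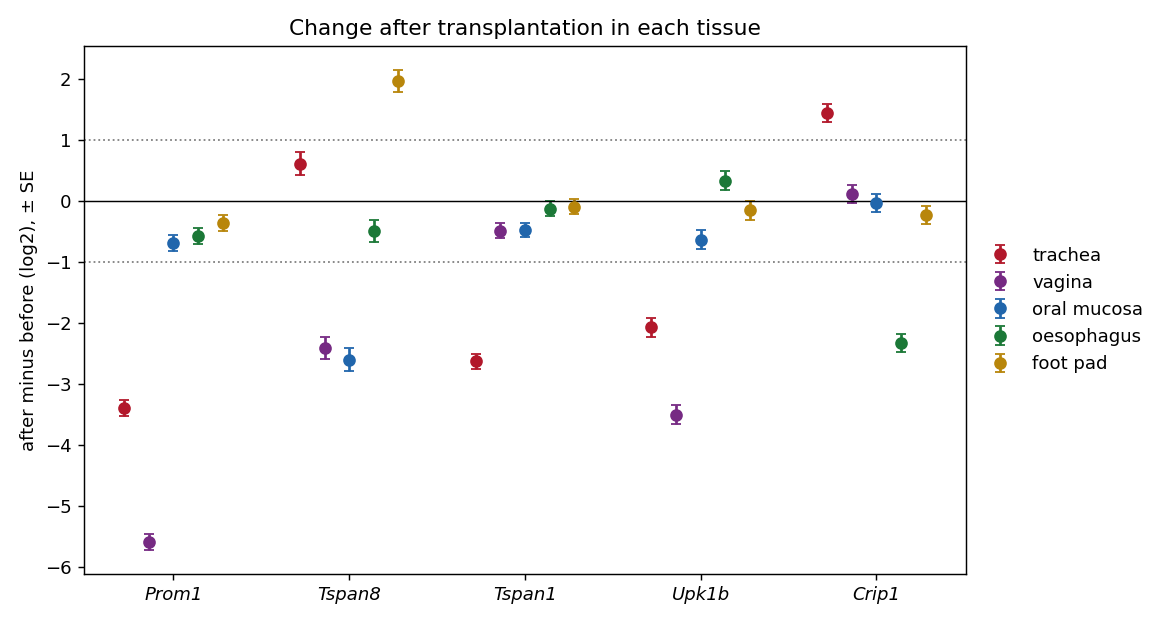
Difference after minus before transplantation (log2, vertical axis) for each gene (horizontal axis) and tissue, with bars for ± SE of limma's fit and dotted lines at a 2-fold change. Prom1 in vagina is the lowest point at −5.59, and Tspan8 in foot pad is the highest at 1.97. The trachea values are shown as a description.

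After versus before transplantation was tested in vagina, oral mucosa, oesophagus and foot pad, each of which was also part of the comparison that chose the genes. In vagina 3 of 5 fell and none rose, where 1.68% of all probe sets fell and 0.534% rose. In oral mucosa 1 of 5 fell, where 2.15% of all probe sets fell and 1.5% rose. In oesophagus 1 of 5 fell, where 0.558% of all probe sets fell and 0.517% rose. In foot pad 1 of 5 rose, where 4.28% of all probe sets rose and 2.64% fell. In trachea, where 0.496% of all probe sets rose and 0.883% fell, 3 of the 5 were more than 2-fold lower and 1 more than 2-fold higher, and nothing is read from these numbers. Tspan8 was called in vagina, oral mucosa and foot pad, Prom1 and Upk1b in vagina alone, and Crip1 in oesophagus alone.

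The response to transplantation differed among the 4 other tissues in 4 of the 5 genes, where 17.4% of all probe sets passed the same F test with a difference over 2-fold. The widest gap between the responses of any pair of tissues was 5.24 for Prom1 (limma F test, adjusted p = 3.43e-10), between foot pad and vagina. For Tspan8 it was 4.57 (adjusted p = 2.89e-08), between foot pad and oral mucosa. For Upk1b it was 3.84 (limma F test, adjusted p = 3.93e-08), between oesophagus and vagina. For Crip1 it was 2.45 (limma F test, adjusted p = 1.17e-06), between vagina and oesophagus. The gap of 0.39 for Tspan1 did not pass (adjusted p = 0.122).

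The levels among the 4 other tissues were tested in the same way at each stage. After transplantation, Tspan8 and Upk1b passed, that is 2 of 5, where 9.88% of all probe sets passed. The range between the highest and the lowest tissue was 5.06 for Tspan8 (limma F test, adjusted p = 8.01e-10) and 1.44 for Upk1b (adjusted p = 1.48e-05). Prom1, with a range of 0.99 (limma F test, adjusted p = 7.67e-05), fell just short of a 2-fold difference, and passed when the second oral mucosa array after (1.08) or the second vagina array after (1.05) was left out. Before transplantation, 4 of 5 passed, where 7.84% of all probe sets passed. The ranges were 6.11 for Prom1 (limma F test, adjusted p = 8.13e-12), 6.39 for Tspan8 (adjusted p = 1.13e-10), 2.70 for Upk1b (adjusted p = 2.06e-08) and 2.49 for Crip1 (adjusted p = 3.36e-08). The ranges of Tspan1 were 0.27 after (limma F test, adjusted p = 0.329) and 0.66 before (adjusted p = 0.0018).

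**Figure D3:**
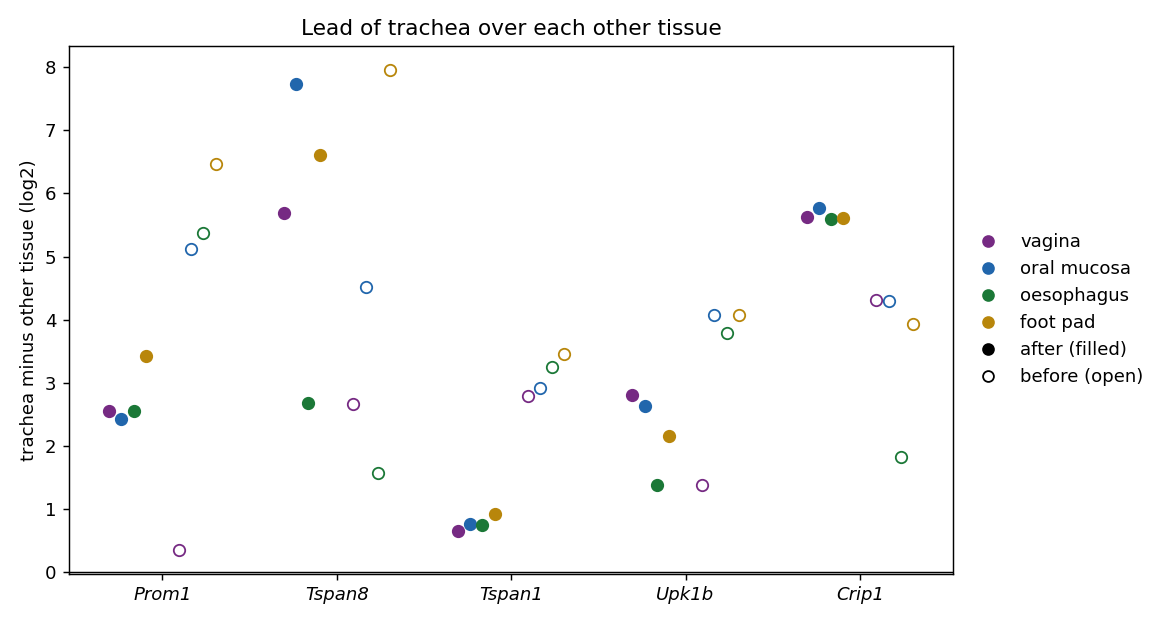
Level in trachea minus the level in each other tissue (log2 difference of group means, vertical axis) for the 5 genes, with filled points after and open points before transplantation. All points lie above 0. The 4 filled points of Crip1 lie together at 5.59 and above, whereas the lowest filled point of Tspan1 is 0.65 and the lowest open point of Prom1 is 0.35.

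Set against the mean of the other 4 tissues, trachea lay higher by 5.68 after and 4.18 before for Tspan8, and by 5.65 after and 3.59 before for Crip1. For Prom1 the distances were 2.73 after and 4.33 before, for Upk1b 2.24 after and 3.32 before, and for Tspan1 0.77 after and 3.11 before. The name of markers kept after grafting therefore fits the 5 genes to different degrees. Tspan8 and Crip1 had a wider distance to the other tissues after transplantation, and Tspan1 was left with a distance under 2-fold. Some markers of other cell types were also higher in trachea in this comparison. Before transplantation these were 5 of 13 fibroblast markers, Vim by 1.59 (limma, adjusted p = 5.33e-07), Postn by 1.56 (adjusted p = 5.74e-08), Col1a1 by 1.36 (adjusted p = 6.58e-07), Col3a1 by 1.28 (adjusted p = 4.04e-05) and Col1a2 by 1.24 (adjusted p = 2.07e-06). Of 8 measured immune markers, 1 was higher before, Cd74, by 1.08 (limma, adjusted p = 2.20e-06). After transplantation, 1 of 13 fibroblast markers was higher, Sparc, by 1.34 (limma, adjusted p = 3.27e-07). Of the 8 immune markers, 1 was higher after, Cd68, by 1.35 (limma, adjusted p = 1.62e-05). The list medians of this distance were 0.58 before and −0.04 after for fibroblast markers, and −0.05 before and 0.07 after for immune markers. Of all probe sets, 0.719% were higher in trachea before and 0.907% after. Before transplantation the mean of the fibroblast list was 7.37 in trachea, 7.29 in vagina and 7.40 in foot pad. It was 5.90 in oral mucosa and 5.81 in oesophagus. By this mean, trachea was thus set apart from oral mucosa and oesophagus, but not from vagina and foot pad. The part of these markers in the distances of the 5 genes was not tested.

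Few other genes of the same families were called. Of 27 other tetraspanins listed, 24 were measured. In trachea after versus before transplantation, Cd63, a tetraspanin of lysosomes and exosomes, was the only one called, and it fell by 1.16 on the log2 scale (limma, adjusted p = 5.74e-06). Cd63 in trachea averaged 8.52 after and 9.69 before. It rose in 3 other tissues, by 1.17 in oral mucosa (limma, adjusted p = 1.11e-06), 1.28 in oesophagus (adjusted p = 3.44e-06) and 1.36 in foot pad (adjusted p = 1.39e-07). No tetraspanin of the list was called in vagina, and with so small a share of all probe sets called there, nothing is read from this. Cd81 fell by 1.16 in oral mucosa (limma, adjusted p = 2.74e-06). In foot pad, the tissue in which Tspan8 rose, Tspan33 rose by 2.44 (limma, adjusted p = 2.92e-08), reading 7.71 and 7.82 after, against 5.53 and 5.12 before, and Tspan12 fell by 1.10 (adjusted p = 1.77e-07). Over the 24, the median difference after minus before lay between −0.07 in foot pad and 0.16 in vagina, against −0.03 and 0.06 over all probe sets.

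Between trachea and the mean of the other 4 tissues, where 0.907% of all probe sets were higher and 0.835% lower in trachea after transplantation, and 0.719% higher and 0.592% lower before, Tspan13 was the 1 tetraspanin of the list called at both stages. It was higher in trachea by 1.08 ± 0.09 after (limma, adjusted p = 1.13e-06) and 1.08 ± 0.09 before (adjusted p = 1.67e-06). Its trachea arrays read 8.94 and 8.83 after, and 9.09 and 9.18 before. Cd63 was 1.22 ± 0.08 higher in trachea before (limma, adjusted p = 1.27e-07) and was not called after, at −0.76.

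Of the 7 uroplakins and prominins listed besides the members, 5 were measured. Upk3bl1, a uroplakin 3B-like gene, read 6.54 and 6.58 in trachea after transplantation, and 8.54 and 8.02 before. No array of another tissue exceeded 5.44 after or 5.92 before. It was thus a further gene with its highest level in trachea at both stages, by 1.84 ± 0.23 after (limma, adjusted p = 4.82e-05) and 3.25 ± 0.23 before (adjusted p = 2.57e-07). After transplantation it fell by 1.72 ± 0.29 in trachea (limma, adjusted p = 0.00105), the direction of Prom1, Tspan1 and Upk1b, and by 1.35 ± 0.29 in oral mucosa (adjusted p = 0.00359). Upk1a, Upk2, Upk3a, which is the plaque partner of Upk1b, and Prom2 were called in no comparison. Across all 29 relatives, the distance of trachea to the mean of the other 4 tissues ran from −0.76 to 1.84 after, with a median of 0.08, and from −0.32 to 3.25 before, with a median of 0.03. Of 17 LIM-domain genes listed with Crip1, 16 were measured, and the single call in any tissue was Fhl2 in foot pad, which fell by 1.25 (limma, adjusted p = 7.52e-07).

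**Figure D4:**
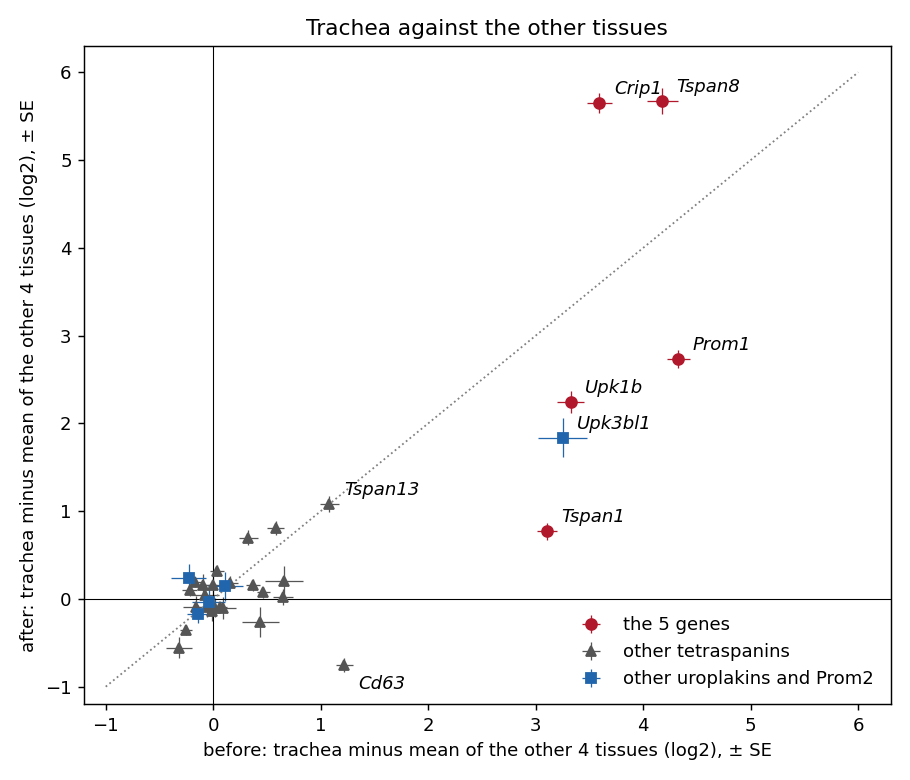
Distance of trachea to the mean of the other 4 tissues (log2), after transplantation on the vertical axis and before on the horizontal axis, with bars for ± SE of limma's fit. Red circles are the 5 genes, grey triangles the other tetraspanins and blue squares the other uroplakins and Prom2, and the dotted line marks equal distances. Most relatives lie near 0 on both axes, with Upk3bl1 at 1.84 and 3.25 among the 5 genes, Tspan8 and Crip1 above the line and Prom1, Upk1b and Tspan1 below it.

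Among 13 measured genes of 15 listed as partners of tetraspanins, claudin-7 (Cldn7), a tight junction protein, was also lower in trachea after transplantation. It read 4.77 and 5.07 in trachea after transplantation, and 7.11 and 7.24 before. Both stages in the other tissues lay between 3.80 and 5.01. Cldn7 fell by 2.25 ± 0.15 in trachea (limma, adjusted p = 3.79e-07), and it was higher in trachea than in the mean of the other tissues before transplantation, by 2.55 ± 0.11 (adjusted p = 2.72e-09). Epcam, an adhesion molecule of epithelia, read 10.24 and 10.15 in trachea after and 10.30 and 10.26 before, with no call between the stages. Before transplantation it was higher in trachea than in the mean of the other tissues, by 1.34 ± 0.07 (limma, adjusted p = 2.39e-08). In foot pad, where Tspan8 rose, Epcam rose by 3.00 ± 0.09 (limma, adjusted p = 6.62e-11), with 10.75 and 10.78 after, against 7.75 and 7.78 before. The other partners called were Hbegf, which fell by 1.10 in oral mucosa (limma, adjusted p = 4.66e-07), and Ptgfrn and Itga2 in foot pad, with differences of −1.45 (adjusted p = 1.95e-08) and −1.03 (adjusted p = 1.08e-05).

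Markers of other cell types were read beside these results. Of 13 fibroblast markers, all measured, 7 fell in trachea, 8 in vagina and 9 in foot pad after transplantation, among them Col1a1, Col1a2, Col3a1 and Thy1 in each. Of all probe sets, 0.883% fell in trachea, 1.68% in vagina and 2.64% in foot pad. In oral mucosa 1 rose, Vim, by 5.10 (limma, adjusted p = 7.62e-11), and in oesophagus none was called. The mean log2 level of the list was 6.02 after and 7.37 before in trachea, 5.74 after and 7.29 before in vagina, and 5.98 after and 7.40 before in foot pad. It was 6.40 after and 5.90 before in oral mucosa and 5.78 after and 5.81 before in oesophagus. The mean of the fibroblast list was thus lower after transplantation in trachea and vagina, where Prom1 and Upk1b were lower, and also in foot pad, where neither was called. In these bulk samples, fewer cells of a type and less RNA per cell cannot be told apart, and the part of these markers in the results was not tested. Of the 8 measured immune markers, Cd68 fell in vagina, with a difference of −1.07 (limma, adjusted p = 0.0011), and in oral mucosa, with −1.96 (adjusted p = 3.34e-06), and Cd74 rose in oral mucosa, by 1.33 (adjusted p = 1.49e-06). None of the endothelial, muscle, cartilage or nerve markers measured was called in any of the 5 tissues.

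The tracheal label was checked with airway genes. Krt14 and Tp63, both basal cell genes, had mean levels of 13.13 and 9.13 in trachea after transplantation and 13.05 and 9.03 before. Krt14 means in the other tissues ran from 13.11 to 13.33 after and from 13.08 to 13.30 before. Tp63 means ran from 9.51 to 10.05 after and from 9.28 to 9.84 before, so that trachea had the lowest at both stages. Krt15, of the same list, fell in trachea by 1.08 (limma, adjusted p = 0.000162). Nkx2-1 in trachea averaged 6.67 ± 0.15 after and 6.71 ± 0.09 before. Its means in the other tissues ran from 5.93 to 6.45 after and from 5.56 to 6.29 before, and it was not called. Scgb1a1, the secretory protein of club cells, averaged 3.40 ± 0.06 in trachea after and 4.12 ± 0.17 before. Foxj1, the regulator of motile cilia, averaged 6.19 ± 0.09 in trachea after and 6.04 ± 0.05 before, within the range of the other tissues. None of the 11 secretory and 10 ciliated cell genes measured was called in any comparison of trachea with the other tissues or of the stages. Of the airway and basal cell genes, Sox2 was higher in trachea after transplantation, by 1.15 (limma, adjusted p = 8.70e-07), and Gata6 before, by 1.19 (adjusted p = 4.92e-05). Cftr, of the apical surface genes described below, was higher in trachea before transplantation, by 1.05 (limma, adjusted p = 0.000835), and was not called after. The cultures thus carried basal cell genes, while the measured secretory and ciliated cell genes did not set trachea apart.

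The 5 genes were also compared in pattern across the 10 group means, which share arrays and normalization. Prom1 and Upk1b were the most alike of the 10 pairs, with a Pearson's r of 0.934, and Prom1 and Crip1 the least, with 0.476. Tspan8 and Crip1, both higher in trachea after transplantation, had an r of 0.773. Tspan1 had an r of 0.839 with Upk1b and 0.795 with Prom1. Against 781 symbols whose group means ranged over more than 2 on the log2 scale, the closest to Prom1 were Upk1b, Krt8, a keratin of simple epithelia, with 0.930, and Samd9l with 0.930. Those closest to Tspan8 were Pi15, a peptidase inhibitor, with 0.959, Tgm1, the transglutaminase of the cornified envelope, with 0.935, and the tetraspanin Tspan13 with 0.924. Cldn7 was closest to Tspan1, with 0.979, followed by Arhgap8 with 0.951 and the zinc transporter gene Slc39a8 with 0.941. Padi1 and Padi4, both peptidylarginine deiminases, were closest to Upk1b, with 0.965 and 0.964. The closest to Crip1 were Osr2, a zinc finger transcription factor, with 0.905, and Clic6 with 0.873. These values describe 10 means and carry no test. The means include the trachea groups, whose high values chose the 5 genes. Positive r among the 5, and with other genes high in trachea, thus follows in part from that choice.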

How the data were processed

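RNA of sorted EGFP-positive rat cells, 100 ng per sample, was labelled with biotin and hybridised to Affymetrix Rat Gene ST 1.0 arrays. The deposited table holds log2 values per probe set. The authors obtained them by RMA normalization, with Affymetrix Expression Console, in versions and over a set of arrays not given in the sources used here. Array medians lay between 5.31 and 5.55. The file gives no detection calls, and the small number of arrays limits the precision. Names came from the platform annotation: 15310 had 1 symbol, 323 had several and 13582 are unnamed here. Where a symbol had several probe sets, the one with the highest mean was used.

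All 10 groups were fitted with limma 3.58.1 (statmod 1.5.0, R 4.3.3), 1 coefficient per group, with 10 residual and 3.64 prior degrees of freedom. Stages were compared within each tissue, and trachea was compared with the mean of the other 4 tissues at each stage. For the 5 genes, the comparisons that involve trachea were left untested. F tests compared levels and responses among the 4 other tissues. All p-values were adjusted by Benjamini-Hochberg over 29215 probe sets. The same fit was tested on simulated data. Genes named besides the 5 were drawn from the called genes with the largest change in each list and comparison, called relatives, marker genes, and the 3 symbols most like each gene. Not every gene of these sets is named. Members and lists were chosen with earlier results of these data known. Roman numerals in the sample titles, possibly passages, were not used. Alternatives were array centering, a filter on the 40% of probe sets with the lowest mean, a trended robust fit, array weights, a replicate block, a fit without trachea, no fold threshold and leaving out each array. Replicate numbers were not treated as pairs in the main fit. Over 45 pairs of groups, duplicate differences correlated between −0.41 and 0.40, with a median of 0.0018 and 3 pairs over 0.1. At the ends of this range, duplicates of different groups thus differed in related ways, and the source was not tested.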

Additional observations from a re-analysis of the deposited data

Results flagged for a closer look

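The response to transplantation differed among oral mucosa, vagina, oesophagus and foot pad for 4 of the 5 genes, by limma's F test on the differences between responses. For Prom1 (adjusted p = 3.43e-10), the response was −5.59 in vagina and between −0.69 and −0.35 in the other 3 tissues. For Tspan8 (limma, adjusted p = 2.89e-08), it was 1.97 in foot pad, −2.60 in oral mucosa, −2.41 in vagina and −0.48 in oesophagus. For Upk1b (limma, adjusted p = 3.93e-08), it was −3.51 in vagina, −0.63 in oral mucosa, −0.15 in foot pad and 0.34 in oesophagus. For Crip1 (limma, adjusted p = 1.17e-06), it was −2.32 in oesophagus and between −0.23 and 0.13 in the other 3. No group had enough arrays for a search for outlying samples.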

How the results depend on the processing

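Array centering, the filter on low values, a trended and robust fit, array weights and a fit without the trachea arrays left the number of the 5 genes called the same in each of the 7 comparisons. The filter removes Tspan1, for which it gives no value. It leaves 10 of the 13 fibroblast markers, of which 5 were called lower after transplantation in trachea, 7 in vagina and 7 in foot pad. Before transplantation, 4 of these 10 were called higher in trachea than in the mean of the other 4 tissues. Array centering also moved some calls of the gene lists. With it, 1 LIM-domain gene was called lower in vagina in place of 0. In oral mucosa, 2 tetraspanins were called lower in place of 1, and 2 tetraspanin partners in place of 1. There, 3 airway and basal cell genes were called lower in place of 2. With no fold threshold, 4 of the 5 genes were called in oral mucosa in place of 1, 2 in oesophagus in place of 1, 4 in vagina in place of 3, 3 for levels after in place of 2 and 5 for levels before in place of 4, while the counts for foot pad and for responses stayed at 1 and 4. Probe sets called then numbered 5950 against 1066 in oral mucosa, 5802 against 646 in vagina, 3877 against 314 in oesophagus and 9205 against 2022 in foot pad. For levels among the 4 other tissues they numbered 11130 against 2885 after and 10682 against 2290 before, and for responses 10781 against 5095. Without single arrays, counts of genes called stayed at 1 in oral mucosa, 3 in vagina, 1 in oesophagus, 1 in foot pad, 4 for levels before and 4 for responses, and ran from 2 to 3 for levels after. Leaving out single arrays turned small differences for Crip1 in oral mucosa, which ran from −0.25 to 0.20 (adjusted p = 0.361, without the second array before), and for Tspan1 in oesophagus, which ran from −0.25 to 0.0084 (adjusted p = 0.984, without the first array before). With the replicate number as a block, 3 genes were called in vagina and 1 each in oral mucosa, oesophagus and foot pad, as without it, and no call on the 5 genes changed. A choice among probe sets could not be tried, since each gene has 1. The 2 arrays of each group limit what the tests can show.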

Other observations

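Of 28 further genes of the apical cell surface, 23 were measured, and the mesothelin gene Msln moved in 4 tissues. It read 10.78 and 10.69 in trachea after transplantation, and 11.86 and 11.82 before, a fall of 1.11 on the log2 scale (limma, adjusted p = 8.41e-06). In vagina it fell by 2.22 (limma, adjusted p = 3.67e-09), reading 9.35 and 9.40 after, against 11.53 and 11.67 before. In oral mucosa it fell by 2.17 (limma, adjusted p = 6.70e-09), and in foot pad it rose by 2.41 (adjusted p = 5.46e-10), reading 10.71 and 10.82 after, against 8.35 and 8.36 before. These are the directions in which Tspan8 changed in the last 3 tissues, and Krt15, given below, also moved in these directions there. In trachea, where Msln fell, Tspan8 was 0.62 higher after transplantation.

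Ceacam1, an adhesion molecule of epithelial surfaces, was higher in trachea than in the mean of the other tissues after transplantation, by 1.75 (limma, adjusted p = 6.97e-08). Trachea averaged 9.27 ± 0.18 after and 9.25 ± 0.10 before. Ceacam1 fell in oral mucosa, with a difference of −2.26 (limma, adjusted p = 4.42e-08), in vagina, with −1.67 (adjusted p = 1.39e-06), and in oesophagus, with −1.26 (adjusted p = 4.67e-05). Cd24, a glycoprotein of progenitor cells, was lower in trachea than in the mean of the other tissues before transplantation, with a difference of −1.88 (limma, adjusted p = 8.83e-09). In the same comparison Msln was higher in trachea, by 1.55 (limma, adjusted p = 1.02e-08), as was Cftr, given above. Krt15, a basal keratin, fell in 4 tissues, with differences of −1.08 in trachea (limma, adjusted p = 0.000162), −3.57 in vagina (adjusted p = 1.06e-09), −1.12 in oral mucosa (adjusted p = 3.79e-05) and −3.34 in oesophagus (adjusted p = 1.02e-08), and rose by 3.40 in foot pad (adjusted p = 5.01e-10).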
